A study of Mus musculus with 6 samples.

Results

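The genes described here encode lysosomal hydrolases, lysosomal membrane proteins and their regulators, together with the transmembrane glycoprotein gene Gpnmb. They were chosen by name as a list of 50 symbols, with earlier results of these data known. Of the 50, 41 had a row among the 13734 genes of the expression table. The cathepsin genes Ctsl and Ctss, the membrane protein gene Cd63, the channel gene Mcoln1, and Hexa, Glb1, Gusb, Ppt1 and Npc2 are not analysed here. Poly(A) RNA came from white adipocytes differentiated from 1 immortalized mouse subcutaneous preadipocyte line that is Dicer1 flox/flox and carries Cre-ERT2, a Cre recombinase that tamoxifen activates. Differentiation used rosiglitazone, an agonist of PPARγ (2.8 µM), and insulin (20 nM) throughout, with T3 until the last step and IBMX, dexamethasone and indomethacin for induction. On day 6 the cells were given 10 µM 4-hydroxytamoxifen (4-OHT) for 48 h to delete Dicer1 (DICERKO, 3 libraries) or ethanol vehicle (control, 3 libraries). Both groups share the floxed alleles and Cre-ERT2, so the controls called WT in the labels are flox/flox cells that were not given 4-OHT. All 6 samples then received 10 µM isoproterenol, a beta-adrenergic agonist, for 6 h, and no unstimulated sample is analysed here. 4-OHT was given to DICERKO alone, so Dicer1 deletion and the drug cannot be told apart. The labels call the libraries of a group biological replicates but do not say whether they were differentiated separately, and p-values measure only the spread between them, which may be technical.

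Lysosomes are acidic organelles in which hydrolases break down proteins, glycans and lipids delivered by endocytosis and autophagy. Most of the hydrolases are glycoproteins that reach the lysosome by mannose 6-phosphate sorting, and inherited loss of single enzymes causes lysosomal storage diseases. The transcription factors Tfeb and Tfe3 bind E-box motifs in the promoters of many lysosomal genes and are held in the cytoplasm when mTORC1 phosphorylates them. In adipose tissue, lysosomal acid lipase can break down lipid droplets taken up by autophagy, and GPNMB is known from lipid-laden macrophages as well as from melanocytes.

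Dicer1, which encodes the RNase that makes mature microRNAs, read 6.14, 6.09 and 6.14 log2 CPM (log2 of the read count scaled to a common library size) in controls 1 to 3, and 5.43, 5.47 and 5.49 in DICERKO replicates 1 to 3. It was lower in every DICERKO library. The table held 13569034 to 30268077 reads per library, and DICERKO replicate 3 was the deepest. The adipocyte markers Fabp4, Lpl and Gpd1 were the most abundant of 17 tested mature adipocyte markers, with mean control levels of 11.82, 11.33 and 9.17 log2 CPM. DICERKO replicate 3 stood apart from the other libraries. Its median over these adipocyte markers lay 1.02 log2 units below the control mean (-1.02), while replicates 1 and 2 lay at 0.74 and 0.67. Preadipocyte and fibroblast markers (17 tested) had medians of -0.24, -0.17 and -0.32. The summed level of the 19 such markers with a row was 16809 to 19589 CPM in controls and 11936 to 12839 CPM in DICERKO. The summed level of the adipocyte markers was 8770 to 10750 CPM in controls and 14793, 14641 and 4593 CPM in DICERKO replicates 1 to 3. None of the adipocyte markers passed the test, and of the preadipocyte markers 1 passed, the collagen gene Col3a1, which fell by 1.44 (limma adjusted p = 0.00856). Without DICERKO replicate 3, 14 of the 17 adipocyte markers rose (median 0.70) and 6 of the 17 preadipocyte markers fell (median -0.17). Over all genes tested in that fit, 12.5% rose and 7.22% fell. With all 6 libraries the most abundant preadipocyte markers, Fn1, Col1a1 and Vim, differed by -0.51, -0.70 and -0.22. In such bulk libraries, fewer cells of a type and less RNA per cell cannot be told apart.

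The promoters of 5 members are shown as examples. Gpnmb and Creg1 are the members that passed the test with all 6 libraries, and Gla, Ctsa and Lamp1 carry E-box motifs of the kind Tfeb and Tfe3 bind. These last genes were picked from 11 members with such a motif, whose differences ran from -0.41 to 0.56 with a median of 0.00. Each window runs from 250 bases before to 50 bases after an annotated start site (RefSeq, GRCm38.p6), 5′ to 3′. Capitals mark the E-box CACGTG, its extended form TCACGTGA (the core of the motif called CLEAR) and the related M-box TCATGTGA, searched on both strands. The windows lie at chr6:49036268-49036567, plus strand (Gpnmb), chr1:165763508-165763807, plus strand (Creg1), chrX:134600956-134601255, minus strand (Gla), chr2:164833523-164833822, plus strand (Ctsa) and chr8:13158911-13159210, plus strand (Lamp1).
Gpnmb: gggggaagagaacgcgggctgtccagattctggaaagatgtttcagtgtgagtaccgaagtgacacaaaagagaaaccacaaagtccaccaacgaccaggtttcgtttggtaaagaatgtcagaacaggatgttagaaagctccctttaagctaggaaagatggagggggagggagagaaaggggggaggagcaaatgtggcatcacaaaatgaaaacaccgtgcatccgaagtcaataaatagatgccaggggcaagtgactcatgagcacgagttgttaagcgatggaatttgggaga
Creg1: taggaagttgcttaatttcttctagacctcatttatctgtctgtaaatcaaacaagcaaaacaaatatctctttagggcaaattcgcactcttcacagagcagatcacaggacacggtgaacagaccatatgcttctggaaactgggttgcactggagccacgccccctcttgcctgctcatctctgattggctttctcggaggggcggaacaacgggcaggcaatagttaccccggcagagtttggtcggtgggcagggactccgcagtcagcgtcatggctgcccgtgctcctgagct
Gla: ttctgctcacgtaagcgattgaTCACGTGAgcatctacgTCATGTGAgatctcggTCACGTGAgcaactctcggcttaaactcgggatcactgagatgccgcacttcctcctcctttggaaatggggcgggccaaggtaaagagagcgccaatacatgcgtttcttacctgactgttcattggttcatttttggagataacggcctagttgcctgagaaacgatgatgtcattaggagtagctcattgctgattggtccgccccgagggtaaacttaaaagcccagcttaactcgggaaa
Ctsa: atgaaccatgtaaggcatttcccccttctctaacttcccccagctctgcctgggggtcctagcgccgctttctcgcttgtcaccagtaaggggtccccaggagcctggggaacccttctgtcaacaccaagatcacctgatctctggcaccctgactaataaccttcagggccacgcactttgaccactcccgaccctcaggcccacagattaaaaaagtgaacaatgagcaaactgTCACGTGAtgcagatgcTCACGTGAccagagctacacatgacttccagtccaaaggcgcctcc
Lamp1: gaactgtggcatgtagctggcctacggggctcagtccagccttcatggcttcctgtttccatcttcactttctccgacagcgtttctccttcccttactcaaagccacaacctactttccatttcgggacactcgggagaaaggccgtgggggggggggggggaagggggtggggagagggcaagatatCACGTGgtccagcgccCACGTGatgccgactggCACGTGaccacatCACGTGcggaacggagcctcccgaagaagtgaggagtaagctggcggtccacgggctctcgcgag

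No capitals appear in the windows of Gpnmb and Creg1, which says only that these letters are absent there. The Gla window held 2 copies of TCACGTGA with a TCATGTGA between them, 195 to 228 bases upstream of the start site. In Ctsa 2 copies of TCACGTGA flanked the start site. Lamp1 held 4 copies of CACGTG within 61 bases upstream of its start site.

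Of the 41 lysosomal genes, 2 rose in DICERKO, 0 fell and 39 did not pass the test (limma, Benjamini-Hochberg over 10054 genes tested, threshold 0.05). Over all genes tested 15 rose, which is 0.149%, and 29 fell, which is 0.288%. All 41 passed the filter of at least 1 CPM in at least 3 libraries, and each had at least 150 reads in every library. An unadjusted p under 0.05 was found for 10 members, 8 higher and 2 lower, and for 1593 of the 10054 genes tested. Limma-voom on the recovered reads called the same 2 members. The 41 differences ran from -0.46 to 0.95 on the log2 scale, with a median of 0.10 against 0.02 over all genes tested, and 31 were above 0. In 10 of the 41 (24.4%) every DICERKO library read above every control, against 10.4% of all genes tested. In 2 of the 41 (4.88%) every DICERKO library read below every control, against 9.81%. Because the list was chosen with earlier results of these data known, its shares describe the members and do not test the list. Leaving out DICERKO replicate 3 raised the member calls to 9 that rose and 2 that fell (22.0% and 4.88% of the members), against 12.5% and 7.22% of all genes tested in that fit. Leaving out any other single library gave 0 or 1 member that rose and 0 that fell. In the fit without replicate 3, 14 of the 17 mature adipocyte markers also rose and 6 of the 17 preadipocyte markers fell, and their part in the member calls was not tested. Array weights kept all 6 libraries but gave DICERKO replicate 3 the lowest weight (0.203) and control replicate 1 the highest (7.54). Their estimation stopped before convergence. That fit called 17 members higher and 2 lower, against 2542 higher and 1942 lower among the 10054 genes tested.

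**Figure D1:**
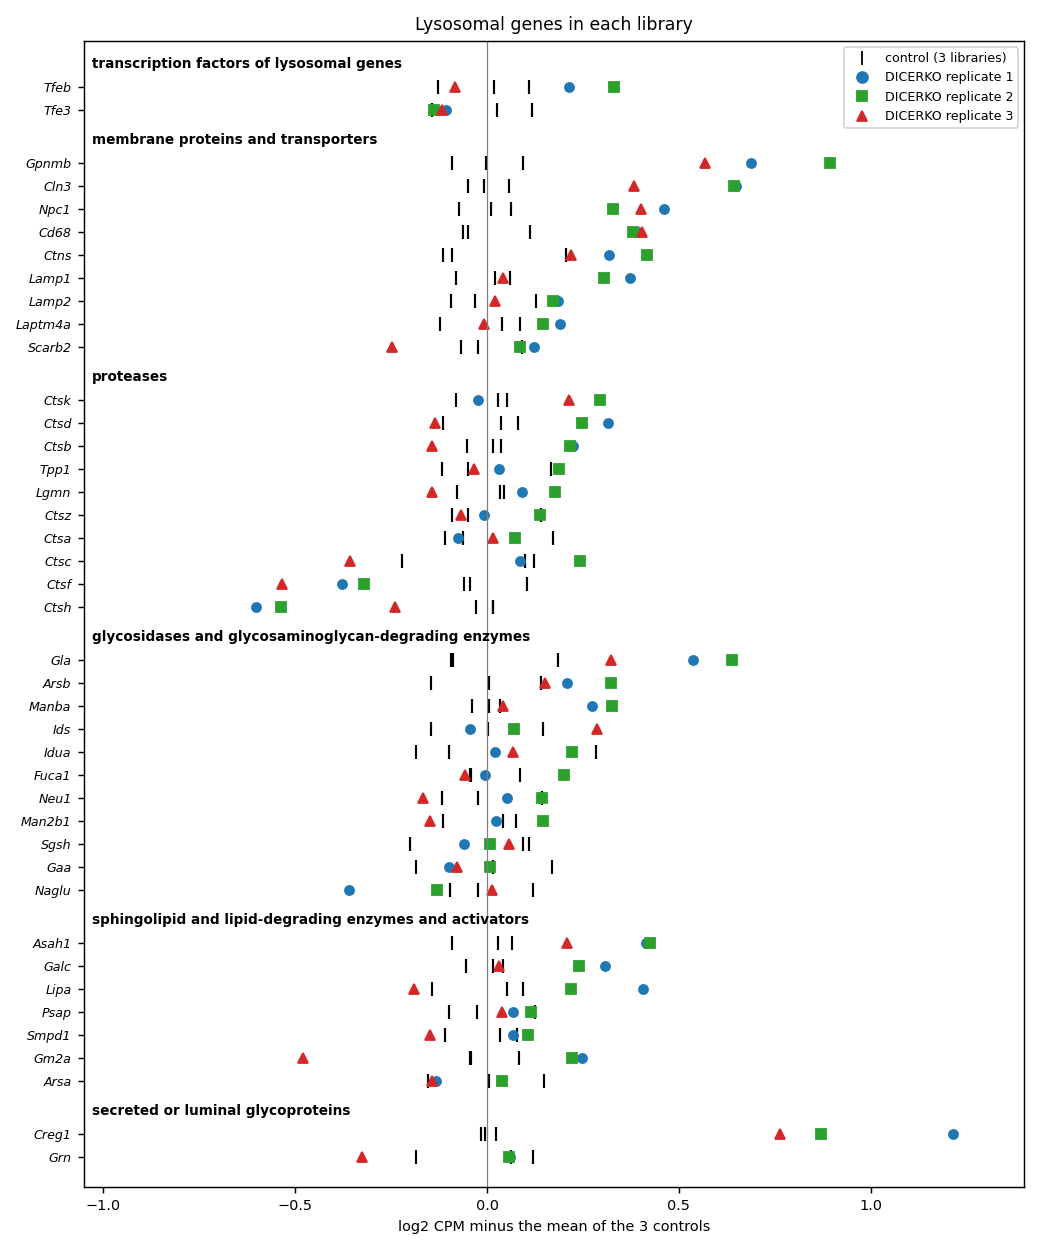
Each lysosomal gene's log2 CPM minus the mean of the 3 controls, by role, with controls as black ticks and DICERKO replicates 1, 2 and 3 as blue circles, green squares and red triangles. Creg1 and Gpnmb lie farthest to the right in all 3 DICERKO libraries, Ctsh and Ctsf lie to the left, and for many hydrolases the red triangles sit to the left of the other DICERKO symbols.

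Creg1 encodes a secreted glycoprotein that is also found in the endosomal and lysosomal system. It read 5.93, 5.97 and 5.94 log2 CPM in controls 1 to 3 and 7.16, 6.81 and 6.71 in DICERKO replicates 1 to 3. The control values lay within 0.04 of each other and the lowest DICERKO library was 0.74 above the highest control. Creg1 (Entrez 433375; GRCm38 chromosome 1, 165763758 to 165775309) rose by 0.95 (SE 0.12, limma adjusted p = 0.00959), a fold of 1.93. The call was lost on leaving out control replicate 1 (limma adjusted p = 0.0603), 2 (0.0638) or 3 (0.0841), while the difference stayed between 0.82 and 1.04 whichever library was left out.

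Gpnmb (Entrez 93695; GRCm38 chromosome 6, 49036518 to 49058182) encodes a type I transmembrane glycoprotein of melanosomes and endolysosomes. It was one of the well expressed genes of the list, at 8.34, 8.44 and 8.25 log2 CPM in controls and 9.03, 9.24 and 8.91 in DICERKO. The groups did not overlap, with a gap of 0.47 between the highest control and the lowest DICERKO library. Gpnmb rose by 0.72 (SE 0.12, limma adjusted p = 0.0340), a fold of 1.64. The call was lost without control replicate 1 (adjusted p = 0.182), 2 (0.0859) or 3 (0.114) and without DICERKO replicate 1 (0.0568) or 2 (0.113), with differences between 0.63 and 0.79 over these and the fit without DICERKO replicate 3. Without the latter library Gpnmb rose by 0.79 (limma adjusted p = 8.98e-05) and Creg1 by 1.04 (1.2e-05).

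Gpnmb and Cd68 are also genes of macrophages, so macrophage and leukocyte markers were measured beside them. Of 25 such markers 11 had a row and 5 passed the filter. The summed level of the 11 was 32.4 to 33.6 CPM in controls and 41.5, 44.7 and 28.9 CPM in DICERKO replicates 1 to 3. None of the 5 tested passed: Cd14 differed by -0.17 (limma adjusted p = 0.614), Mpeg1 by 0.56 (0.463), Csf1r by -0.16 (0.704), Cd74 by 0.60 (0.291) and Trem2 by 0.45 (0.294). Without DICERKO replicate 3, 2 of the 5 rose, Mpeg1 by 1.11 (limma adjusted p = 0.000643) and Trem2 by 0.64 (0.0115), in the same fit in which Gpnmb and Cd68 rose. Over all genes tested in that fit, 12.5% rose. Lyz2, a lysozyme gene of myeloid cells, had 9 to 33 reads per library, and Fcer1g had 1 to 9. Spi1, Marco and Fcgr1 had 0 reads in some libraries and at most 5 in any. Gpnmb read 8.25 log2 CPM or more in every library, and the part of any such cells in its rise was not tested.

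**Figure D2:**
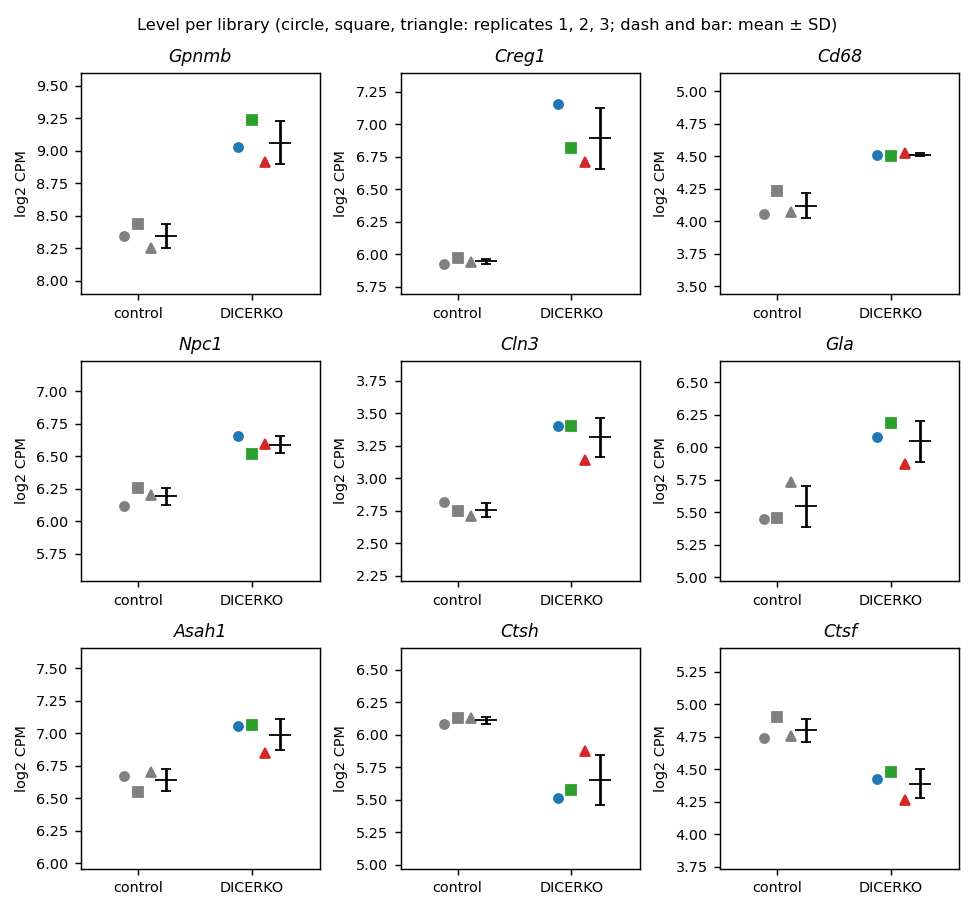
Log2 CPM of 9 lysosomal genes in each control (grey) and DICERKO (coloured) library, with replicates 1 to 3 as circles, squares and triangles and the mean ± SD (n = 3) beside them; each vertical axis spans the same range. In Gpnmb, Creg1, Cd68, Npc1, Cln3, Gla and Asah1 every DICERKO library lies above every control, and in Ctsh and Ctsf every one lies below.

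Genes of lysosomal membrane proteins and transporters had the highest median difference of the 4 role groups with more than 2 members, 0.32. Of 9 tested 1 rose, which was Gpnmb, against 0.149% of all genes tested. Differences above 0 were found for 8 of the 9, against 5304 of the 10054 genes tested. In 5 of the 9 every DICERKO library lay above every control, against 10.4% of all genes tested. The cholesterol transporter gene Npc1, which exports cholesterol from the lysosome, read 6.12, 6.25 and 6.20 log2 CPM in controls and 6.65, 6.52 and 6.59 in DICERKO, a difference of 0.40 (SE 0.10, adjusted p = 0.112). Its DICERKO libraries were all higher than the controls, although the test was not passed. Cln3, which is mutated in juvenile Batten disease, read 2.82, 2.75 and 2.71 in controls and 3.41, 3.40 and 3.14 in DICERKO, a difference of 0.56 (SE 0.14, adjusted p = 0.121). Npc1 and Cln3 share 601 and 442 exon bases with other annotated genes, and the counting is not stated to use strand. Overlaps were also found for other members, among them Lamp1 (249 bases), Sgsh (955), Arsa (690) and Galc (400). Cd68, the heavily glycosylated macrosialin gene, read 4.05, 4.23 and 4.07 in controls and 4.51, 4.50 and 4.52 in DICERKO, a difference of 0.39 (SE 0.11, adjusted p = 0.163). The cystine exporter gene Ctns differed by 0.32 (SE 0.13, adjusted p = 0.286) without overlap of the groups.

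The remaining membrane protein genes, Lamp1, Lamp2, Laptm4a and Scarb2, had smaller differences. Lamp1, a main structural glycoprotein of the lysosomal membrane, read 10.02, 10.06 and 9.92 log2 CPM in controls and 10.37, 10.30 and 10.04 in DICERKO, a difference of 0.24 (SE 0.13, adjusted p = 0.368). DICERKO replicates 1 and 2 lay above the controls and replicate 3 lay among them. Lamp2, which also serves chaperone-mediated autophagy, differed by 0.13 (SE 0.12, adjusted p = 0.572). Laptm4a differed by 0.11 and Scarb2, the receptor that carries glucocerebrosidase to the lysosome, by -0.01, with adjusted p-values from limma of 0.620 and 0.965. Without DICERKO replicate 3, Npc1 (0.39, limma adjusted p = 0.0115), Cln3 (0.65, 0.00624), Cd68 (0.39, 0.0334) and Lamp1 (0.34, 0.0291) rose. Ctns then differed by 0.37 (0.0556).

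Protease genes showed no common direction. None of 10 passed the limma test, and 2 had an unadjusted p under 0.05, against 1593 of the 10054 genes tested. Differences above 0 were found for 7 of the 10, against 5304 of the 10054, and the median was 0.03. Both of the members with the smallest p in this group lay lower in DICERKO. Ctsh, an aminopeptidase cathepsin gene, read 6.08, 6.13 and 6.13 log2 CPM in controls and 5.51, 5.57 and 5.87 in DICERKO, a difference of -0.46 (SE 0.12, adjusted p = 0.118). Ctsf, a cysteine cathepsin gene, read 4.74, 4.91 and 4.76 in controls and 4.42, 4.48 and 4.27 in DICERKO, a difference of -0.41 (SE 0.12, adjusted p = 0.157). Neither gene's groups overlapped, and without DICERKO replicate 3 Ctsh fell by 0.57 (limma adjusted p = 0.000907) and Ctsf by 0.35 (0.0414).

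The remaining protease genes had small mean differences and did not pass the test. Ctsd, the aspartic protease of lysosomes, read 9.51, 9.55 and 9.36 log2 CPM in controls and 9.79, 9.72 and 9.34 in DICERKO, a difference of 0.14 (SE 0.14, adjusted p = 0.599). Ctsb, a cysteine protease gene, read 10.65, 10.63 and 10.56 in controls and 10.84, 10.83 and 10.47 in DICERKO, a difference of 0.10 (SE 0.14, adjusted p = 0.723). In both genes DICERKO replicates 1 and 2 lay above every control and replicate 3 below every control. Ctsk, the collagen-degrading cathepsin gene known from osteoclasts, differed by 0.16 (SE 0.11, adjusted p = 0.465). The other 5, the carboxypeptidase genes Ctsa and Ctsz, the legumain gene Lgmn, the tripeptidyl peptidase gene Tpp1 and the dipeptidyl peptidase gene Ctsc, had differences from -0.01 (Ctsc) to 0.06 (Tpp1). Exons of Ctsd, Ctsb and Ctsa overlap other annotated genes by 808, 774 and 819 bases.

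Among glycosidases and enzymes that degrade glycosaminoglycans, 0 of 11 passed the limma test, and the median difference was 0.05. An unadjusted p under 0.05 was found for 1 of the 11, against 1593 of the 10054 genes tested. Gla, the alpha-galactosidase gene that is mutated in Fabry disease, had the smallest p of this group. It read 5.45, 5.46 and 5.73 log2 CPM in controls and 6.08, 6.18 and 5.87 in DICERKO, a difference of 0.50 (SE 0.12, adjusted p = 0.112). All DICERKO libraries lay above the controls, and without replicate 3 the gene rose by 0.59 (limma adjusted p = 0.00190). Arsb, an arylsulfatase gene of dermatan sulfate breakdown, differed by 0.23 (SE 0.11, adjusted p = 0.339), and the beta-mannosidase gene Manba by 0.21 (SE 0.11, adjusted p = 0.368). Neither gene's groups overlapped, but in both DICERKO replicate 3 was less than 0.01 above the highest control. Arsb shares 2411 exon bases with other annotated genes. Gaa, the acid alpha-glucosidase gene of lysosomal glycogen breakdown, read 8.54, 8.70 and 8.34 in controls and 8.43, 8.53 and 8.45 in DICERKO, a difference of -0.06 (SE 0.12, adjusted p = 0.815). The alpha-mannosidase gene Man2b1 differed by 0.01 (SE 0.11, adjusted p = 0.979). Naglu, of heparan sulfate breakdown, had the lowest difference of this group, -0.16 (SE 0.12, adjusted p = 0.500). The sialidase gene Neu1, the fucosidase gene Fuca1 and the genes Idua, Ids and Sgsh of glycosaminoglycan breakdown differed by 0.00 (Sgsh) to 0.10 (Ids).

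In the group of lipid-degrading enzymes and their activators, 0 of 7 passed the limma test, and the median difference was 0.07. An unadjusted p under 0.05 was found for 1 of the 7, against 1593 of the 10054 genes tested. Asah1, the acid ceramidase gene, read 6.67, 6.55 and 6.70 log2 CPM in controls and 7.05, 7.06 and 6.85 in DICERKO, a difference of 0.35 (SE 0.11, adjusted p = 0.178). Its groups did not overlap, and without DICERKO replicate 3 it rose by 0.42 (limma adjusted p = 0.00661). Lipa, the lysosomal acid lipase gene, read 7.28, 7.04 and 7.24 in controls and 7.59, 7.40 and 6.99 in DICERKO, a difference of 0.14 (SE 0.15, adjusted p = 0.617). DICERKO replicates 1 and 2 were above every control and replicate 3 was below every control. Leaving out replicate 3 gave a rise of 0.31 for Lipa (limma adjusted p = 0.0472). Gm2a, the activator of ganglioside breakdown, spread most between DICERKO libraries, at 6.80, 6.77 and 6.07 against 6.50, 6.51 and 6.63 in controls, a difference of 0.00 (SE 0.17, adjusted p = 0.991). Psap, which encodes the precursor of the saposins, read 11.49, 11.64 and 11.42 in controls and 11.59, 11.63 and 11.56 in DICERKO, a difference of 0.07 (SE 0.13, adjusted p = 0.784). The galactocerebrosidase gene Galc differed by 0.19 (SE 0.12, adjusted p = 0.436). The acid sphingomyelinase gene Smpd1 differed by 0.01 and the arylsulfatase A gene Arsa by -0.08 (limma adjusted p = 0.973 and 0.736).

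The transcription factors of lysosomal genes did not pass the test. Tfeb read 4.00, 4.09 and 3.85 log2 CPM in controls and 4.19, 4.31 and 3.90 in DICERKO, a difference of 0.15 (SE 0.14, adjusted p = 0.574). Tfe3 read 6.55, 6.64 and 6.38 in controls and 6.42, 6.38 and 6.40 in DICERKO, a difference of -0.12 (SE 0.10, adjusted p = 0.543). Their activity depends on phosphorylation and location in the cell, which RNA levels do not measure. Grn, the gene of progranulin, which is secreted and cut into granulins in lysosomes, read 9.09, 9.15 and 8.84 in controls and 9.09, 9.09 and 8.70 in DICERKO, a difference of -0.07 (SE 0.14, adjusted p = 0.812).

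**Figure D3:**
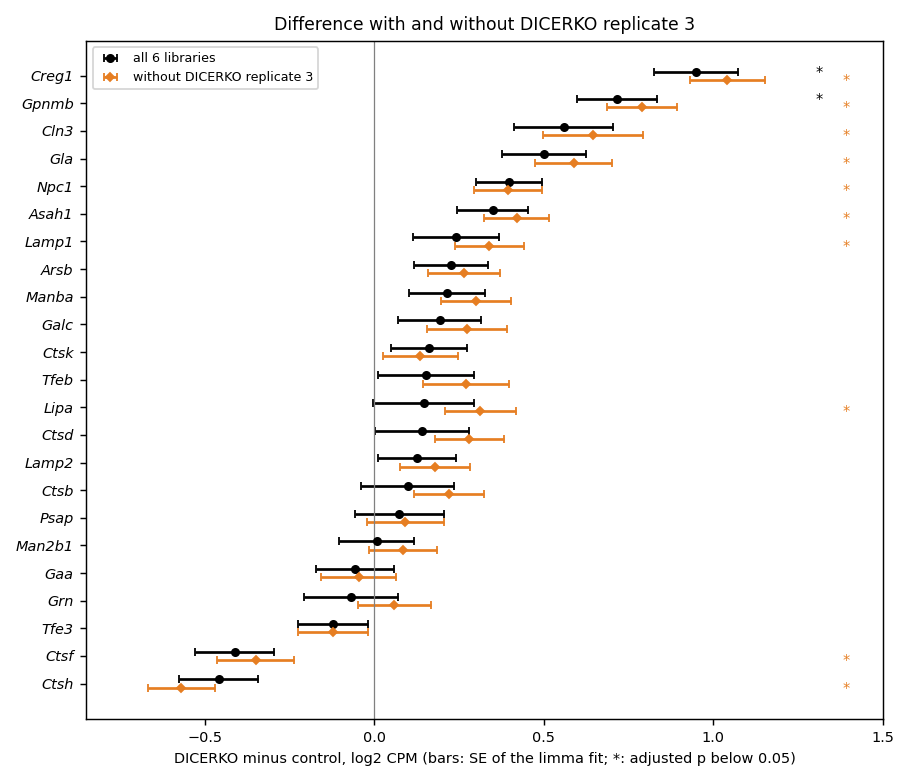
Difference between DICERKO and control in log2 CPM for 23 lysosomal genes, with all 6 libraries (black circles) and without DICERKO replicate 3 (orange diamonds); bars are the SE of the limma fit and asterisks mark an adjusted p below 0.05. Creg1 and Gpnmb carry a black asterisk, and 10 of these genes carry an orange one.

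The DICERKO libraries differed in how the lysosomal genes lay against the controls. In replicates 1 and 2, 21 and 27 of the 41 members read above every control (51.2% and 65.9%), while 3 in each read below every control (7.32%). In replicate 3, 12 read above every control (29.3%) and 14 below (34.1%). Over all genes tested, 36.8%, 36.2% and 28.8% were above every control in replicates 1, 2 and 3, and 33.5%, 30.9% and 28.9% were below. The members' median against the control mean was 0.09, 0.20 and -0.01. Against the mean of the other controls, the median in controls 1, 2 and 3 was -0.01, 0.11 and -0.12. Proteases lay at -0.14 in replicate 3 and lipid-degrading enzymes at -0.14, while membrane proteins lay at 0.22. The mature adipocyte markers were low in the same library (-1.02), and their part in these values was not tested. Creg1, Gpnmb, Npc1, Cln3, Cd68 and Gla read at least 0.3 above the control mean in replicate 3 as well.

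**Figure D4:**
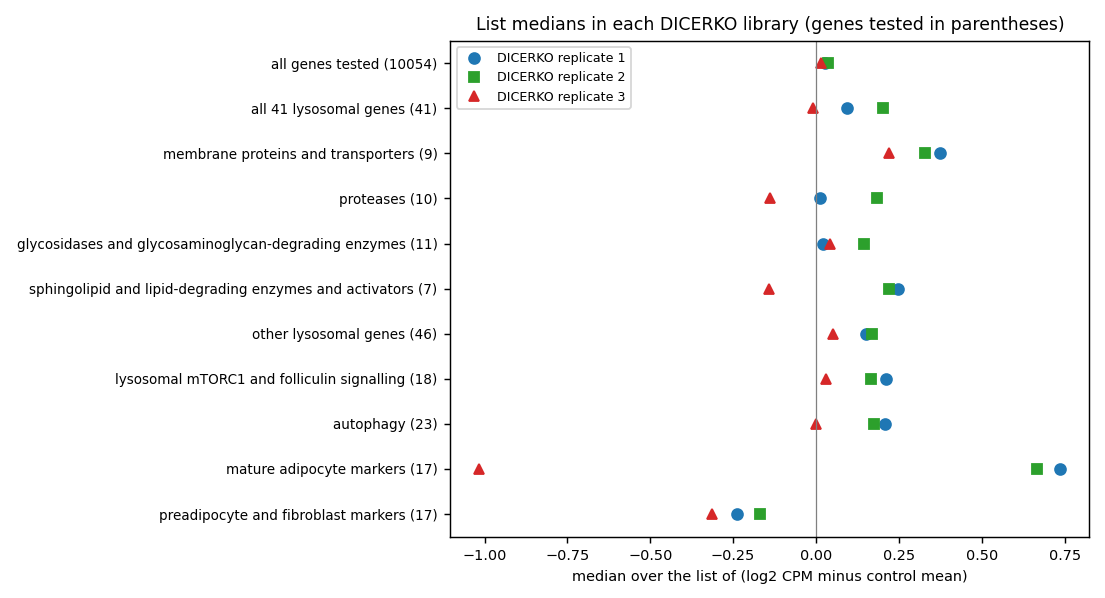
Median over each gene list of the log2 CPM minus the control mean, in DICERKO replicates 1 (blue circles), 2 (green squares) and 3 (red triangles), with the number of genes tested in parentheses. Replicate 3 is the lowest of the 3 libraries in every list shown, all genes tested included, except the glycosidases and glycosaminoglycan-degrading enzymes. The mature adipocyte markers in it lie at -1.02.

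The members spanned a wide range of levels per exon length. Exon length here is the union of all annotated exons of a gene, not the length of a single transcript. Levels scaled to exon length and library size (RPKM, from recovered reads and GENCODE M21 exon lengths) ran in controls from 1.13 ± 0.0388 for Galc to 1073 ± 85.9 for Psap (SD, n = 3). The low place of Galc depends on its exon length of 14879 bases. Without that scaling its control mean was 4.08 log2 CPM, above Cln3 at 2.76. After Psap came Lamp1 (383 ± 18.9), Ctsd (303 ± 21.2), Laptm4a (281 ± 20.9), Ctsb (259 ± 8.36) and Ctsz (255 ± 22.2) (RPKM, SD, n = 3). Among the controls Lamp1 lay above Ctsd in every library, while neighbours in the order from Ctsd to Ctsz overlapped. Gpnmb went from 50.0 ± 3.21 RPKM in controls to 82.4 ± 9.50 in DICERKO (SD, n = 3), from below Ctsk among controls to above Gaa among DICERKO libraries in the order of means. Creg1 went from 26.1 ± 0.371 to 50.8 ± 8.53 RPKM (SD, n = 3). The transcription factor genes were low, with Tfe3 at 9.95 ± 0.895 and Tfeb at 2.78 ± 0.228 RPKM in controls (SD, n = 3).

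**Figure D5:**
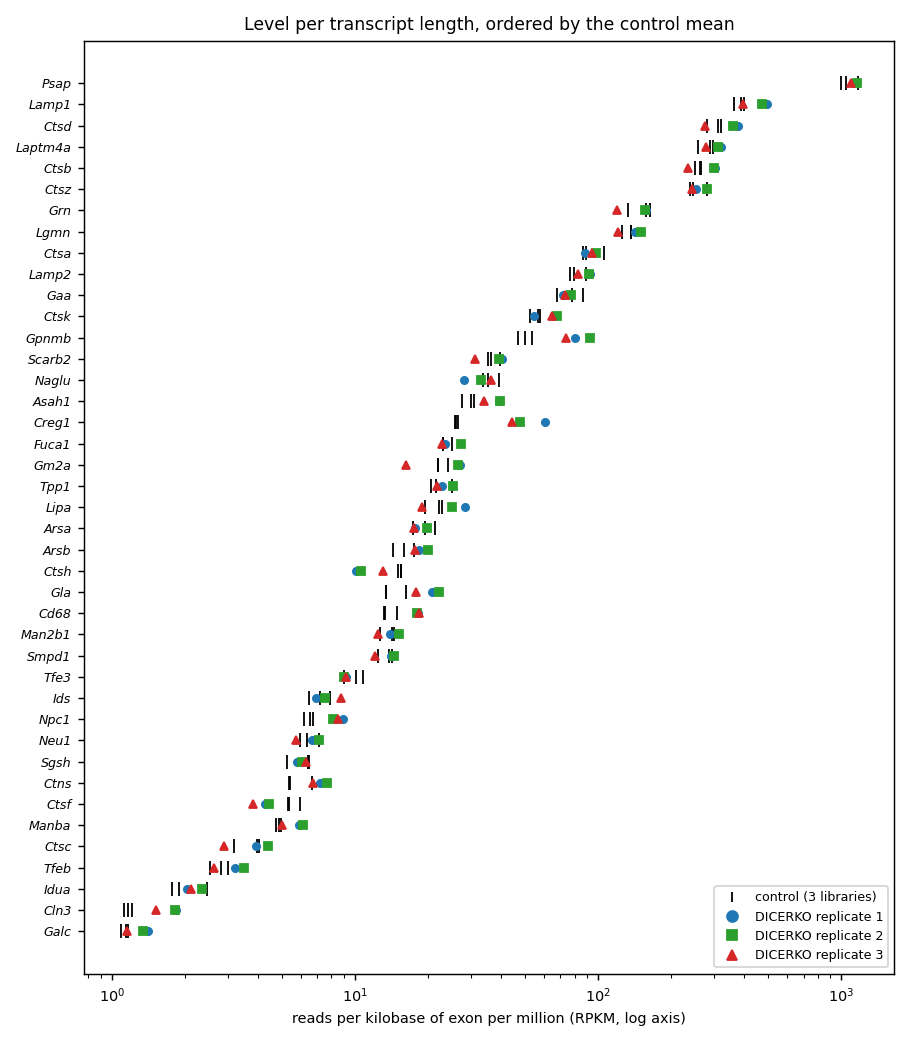
Level of each lysosomal gene per exon-union length (RPKM, log axis) in every library, ordered by the control mean, with controls as black ticks and DICERKO replicates as coloured symbols. Psap is the highest, near 1073 in controls, and Galc and Cln3 are the lowest, near 1.13 and 1.17.

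Other genes of the pathway gave no call with all 6 libraries. Of 46 further lysosomal genes, 0 rose and 0 fell by limma with adjusted p-values, and the median difference was 0.12. An unadjusted p under 0.05 was found for 11 of the 46, against 1593 of the 10054 genes tested. In 12 of the 46 every DICERKO library was above every control and in 2 every one was below, against 10.4% and 9.81% of all genes tested. The membrane protein gene Laptm4b differed by 0.30 (SE 0.10, adjusted p = 0.228). Without DICERKO replicate 3, 11 of the 46 rose and 2 fell, against 12.5% and 7.22% of all genes tested, and limma-voom on the recovered reads of all 6 libraries again gave 0 calls. Sort1, the sorting receptor sortilin gene, was the largest of these rises, at 1.01 (limma adjusted p = 3.56e-06). It read 6.55, 6.48 and 6.57 log2 CPM in controls and 7.57, 7.52 and 5.68 in DICERKO, so that replicate 3 lay below every control and the other DICERKO libraries above. With all libraries it differed by 0.39 (SE 0.39, adjusted p = 0.608). Sort1 was picked out after its values were seen.

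Genes of the lysosomal mTORC1 and folliculin system, which senses amino acids at the lysosomal surface and controls Tfeb, were measured too. They had 0 calls by limma among 18 tested and a median difference of 0.16. Of the 18, 3 had an unadjusted p under 0.05, against 1593 of the 10054 genes tested. Rragd, a Rag GTPase gene, read 2.72, 2.81 and 2.75 log2 CPM in controls and 3.37, 3.16 and 3.64 in DICERKO, a difference of 0.63 (SE 0.16, adjusted p = 0.112). Fnip1, a folliculin partner gene, read 6.06, 6.01 and 6.43 in controls and 6.89, 6.82 and 6.48 in DICERKO, a difference of 0.56 (SE 0.15, adjusted p = 0.121). In both genes every DICERKO library lay above every control, and without replicate 3 Rragd rose by 0.51 (limma adjusted p = 0.0285) and Fnip1 by 0.69 (0.00103). Of 23 autophagy genes 0 were called by limma, and the median difference was 0.12. Among the 23, 6 had an unadjusted p under 0.05, against 1593 of the 10054 genes tested. The autophagy initiation gene Rb1cc1 differed by 0.47 (SE 0.15, adjusted p = 0.205) and the autophagy receptor gene Optn by 0.37 (SE 0.12, adjusted p = 0.209). In the fit without DICERKO replicate 3, 6 of the 23 autophagy genes rose and 0 fell, against 12.5% and 7.22% of all genes tested.

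Promoter windows were found for 37 of the 41 members (45 windows). The E-box CACGTG lay in a window of 11 of these 37 genes (29.7%), against 11.9% of the 7932 tested genes with a window. The longer form TCACGTGA, which contains CACGTG, was found in 4 of the 37 (10.8%) against 2.23%, in Cln3, Ctsa, Ctsd and Gla. The M-box TCATGTGA was found in 3 of the 37 (8.11%) against 0.744%, in Tpp1, Gla and Grn. A match is a description of the letters and not a binding site. The 11 members with CACGTG had a median difference of 0.00 and a range from -0.41 (Ctsf) to 0.56 (Cln3). The 26 without it had a median of 0.10 and a range from -0.12 to 0.95. Among the members with TCACGTGA, Cln3 and Gla were higher in every DICERKO library, while Ctsa differed by 0.00 and Ctsd by 0.14.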

How the data were processed

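Poly(A) RNA-seq of 3 control and 3 DICERKO libraries was used. The deposited values are log2 CPM, the authors' log2 of the read count, with 0.5 added, scaled to a common library size. HISAT2 and featureCounts, beside edgeR, FastQC and Trimmomatic, are listed without versions in the submitters' processing notes, as are the builds mm10 and GRCm38. Solving the formula gave whole reads for every value (tolerance 0.01). The strand setting of the counting is not given in the sources used here. Of 13734 gene IDs, 13682 matched a RefSeq symbol (GRCm38.p6).

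The 10054 genes that reached 1 CPM in 3 or more libraries were tested on the deposited log2 CPM with limma 3.58.1 (trended empirical Bayes, group as the only term) in R 4.3.3, with Benjamini-Hochberg adjustment over all tested genes and a threshold of 0.05. Changes are given as DICERKO minus control. RPKM used the recovered reads and GENCODE M21 exon-union lengths. Figures and tables were made with Python 3.11.15.

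The members and lists were chosen with earlier results of these data known. Members given with values by rule were those past the threshold, the 3 with the smallest p and the 2 with the highest mean level in each role group, and Gpnmb, Creg1, Tfeb, Tfe3, Lamp1, Ctsd and Mcoln1, the last of which is not analysed here; of other lists the called genes or, with none, the 2 with the smallest p, and of cell type markers the 3 with the highest mean. The other members were added to account for all of them. Values of a further gene from those lists are not reported here. Alternatives were 2 scalings, 2 filters, log2(CPM + 1), limma-voom, robust empirical Bayes, array weights, a replicate block and leaving out each library. Same-numbered libraries did not deviate together (correlations of 0.20, -0.01 and -0.08), so the numbers were not treated as pairs. The table held 71.5% (DICERKO replicate 3) to 77.1% (DICERKO replicate 1) of the reads of the library size that the formula implies. These 13569034 to 30268077 reads per library limit precision least for abundant genes, and members had 150 to 127750 reads.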

Additional observations from a re-analysis of the deposited data

How the results depend on the processing

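Gpnmb and Creg1 were called under both scalings, both filters, log2(CPM + 1), limma-voom, robust empirical Bayes and array weights. No named member changed direction past the threshold under any setting, and the median member difference stayed between 0.04 and 0.16. Robust empirical Bayes called 23 genes higher and 47 lower over all genes tested. Array weights, whose estimation stopped before convergence and gave control replicate 1 a weight of 7.54 and DICERKO replicate 3 a weight of 0.203, called 2542 higher and 1942 lower over all genes, 17 members higher and 2 lower, and 20 other lysosomal genes higher and 4 lower. With the replicate number as a block, limma called 0 genes higher and 2 lower and 0 members, with an adjusted p of 0.109 for both Gpnmb and Creg1 and 1434 unadjusted p-values under 0.05. The numbers are not shown to pair the libraries. Leaving out 1 library at a time gave 0 to 1257 genes higher and 1 to 726 lower, 0 to 9 members higher and 0 to 2 lower, and 0 to 11 other lysosomal genes higher and 0 to 2 lower, the highest counts each without DICERKO replicate 3; the cause was not tested. Of the 44 genes called with 6 libraries, 11, 10 and 1 were called without control replicate 1, 2 or 3, 27 and 17 without DICERKO replicate 1 or 2, and 44 without DICERKO replicate 3. With 3 libraries a group, a member whose adjusted p misses the threshold is not shown to be alike in both groups.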
